A study of Mus musculus with 22 samples.

Results

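The genes described here encode the machinery that moves digestive enzyme granules of the pancreas to the cell surface and fuses them with it. They are 9 of the 21450 gene symbols in the table, Rab3d, Rab27a, Rab27b, Vamp2, Vamp8, Stx2, Stx3, Snap23 and Stxbp2, chosen by symbol and read by 15 of its 30146 probes. Whole pancreas of C57Bl/6 mice was profiled with TempO-Seq, which ligates pairs of detector oligonucleotides on their transcript and counts them by sequencing. Control dams received corn oil under the skin 2 times per week, and treated dams received the dioxin TCDD on the same schedule at a stated dose of 20 ng/kg/d. Injections began before mating and went on until birth. Organs of dams and of newborn pups, whose exposure came through the mother, were taken on the day of birth. By the labels 4 dams, 3 female pups and 3 male pups were controls, and each TCDD group (dams, female pups, male pups) held 4 animals. Pup libraries came from 7 of the 8 litters, 1 male and 1 female each, and none of litter 5 was analysed here. The labels name neither a transgene nor the dams' age.

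Acinar cells store zymogens, the inactive forms of digestive enzymes, in granules below the apical membrane and release them when a hormone or nerve signal raises calcium. Rab GTPases on the granule mark it for transport and docking. SNARE proteins on the granule (VAMPs) then pair with SNAREs of the target membrane (syntaxins and SNAP-23), and a Sec1/Munc18 (SM) protein guides that pairing. Syntaxin 2 is known mainly on the apical plasma membrane of acinar cells and syntaxin 3 on the granule itself.

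Stage genes of 8 of the 22 libraries went against their stage label, so the members are described in 2 classes of library. A library was called newborn type where its summed count of Afp, a fetal plasma protein, exceeded that of Pnlip, the pancreatic triglyceride lipase, and adult type otherwise. The 14 newborn-type libraries had 5681 to 29569 Afp and 255 to 1546 Pnlip counts, and the 8 adult-type libraries had 0 to 21 and 621930 to 936845. The newborn type holds 10 labelled pups and 4 labelled dams (8 libraries labelled control and 6 labelled TCDD). The adult type holds 4 labelled dams and 4 labelled pups (2 control and 6 TCDD). The labels that conflict are those of control dams 2 and 4 and TCDD dams 6 and 10 (newborn type), and in the adult type those of the TCDD male pups 8, 10 and 11 and of female pup 6 of the TCDD group. Because the classes were read from counts, class differences below are descriptions and carry no test. Total counts were 11223816 to 34911410 per library. The floor of 3 counts, which covers counting error only, lay at 0.0859 to 0.267 CPM of the library total. In the TMM-scaled CPM used below it lay at 0.0721 to 0.175 in newborn-type and at 0.299 to 0.459 in adult-type libraries.

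Acinar enzymes took a larger share of the adult-type libraries, and the class difference of other genes depended on the scaling. The 15 acinar cell marker genes took 23.2 to 28.7% of all reads in newborn-type libraries and 41.3 to 44.3% in adult-type libraries. As CPM of the library total, the median log2 difference (adult type minus newborn type) was -1.61 over the 16143 probes whose counts averaged at least 10 per library. After scaling by the trimmed mean of M values (TMM), which sets libraries level on the bulk of their probes, this shift was -0.15. What part of the shift on the library total goes with the enzyme share was not tested. Levels below are TMM-scaled CPM unless the library total is named. In whole-organ RNA, fewer cells of a type and less RNA per cell cannot be told apart.

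Rab3d and Rab27a, which encode small GTPases, stood higher in every adult-type library than in any newborn-type library, and the syntaxin gene Stx2 stood lower in every one. The other 6 members overlapped between the classes. So 2 of the 9 members had an adult-type range wholly above the newborn-type range, where 7.75% of the 16143 probes did, and 1 had it wholly below, where 13.2% did. With only the 14 libraries whose stage label matches their class, 3 members stood wholly above and 1 wholly below. The shares of 7.75% and 13.2% come from all libraries, and none is given for this subset. Of the 15 member probes 14 averaged at least 10 counts and belong to these 16143. The exception, Stxbp2 probe Stxbp2_29515, had at most 7 counts in a library.

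**Figure D1:**
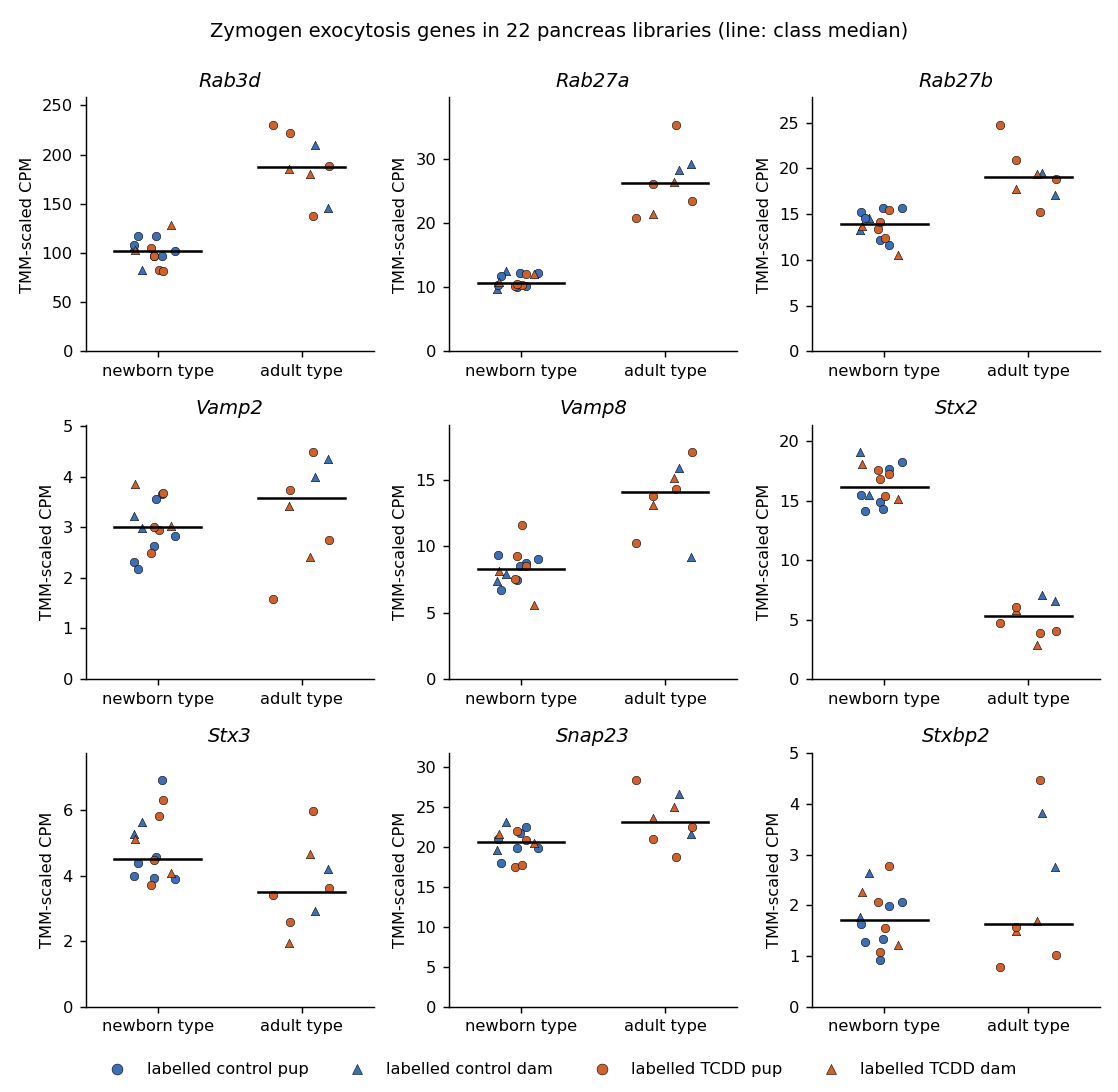
TMM-scaled CPM (linear axes from 0) of the most abundant probe of each of the 9 members in 14 newborn-type and 8 adult-type libraries. Each point is a library, with colour for the chemical label, shape for the stage label and a line at the class median; Rab3d, Rab27a and Stx2 show separate ranges.

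The upstream sequences of these 3 members are shown because their class ranges did not overlap. The search for member windows left out a chromosome of the reference and found 9 RefSeq (GRCm38.p6) windows for 7 of the 9 members. A member without a window here may therefore have one in RefSeq. The windows printed are the 250 bases before a transcript start, 5′ to 3′ on the gene's strand. Capitals mark matches, on either strand and with no overlap among those found, to 3 motifs: CATATG and CAGCTG, E-box forms that acinar basic helix-loop-helix factors can bind, and TGGGAA, the core bound by RBPJ proteins.
Rab3d, chr9:21918184-21918433, minus strand: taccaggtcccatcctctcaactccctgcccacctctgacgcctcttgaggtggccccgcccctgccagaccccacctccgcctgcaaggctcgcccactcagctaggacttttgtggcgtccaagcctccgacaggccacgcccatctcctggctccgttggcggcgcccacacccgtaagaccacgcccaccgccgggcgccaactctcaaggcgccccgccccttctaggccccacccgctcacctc
Rab27a downstream start, chr9:73063898-73064147, plus strand: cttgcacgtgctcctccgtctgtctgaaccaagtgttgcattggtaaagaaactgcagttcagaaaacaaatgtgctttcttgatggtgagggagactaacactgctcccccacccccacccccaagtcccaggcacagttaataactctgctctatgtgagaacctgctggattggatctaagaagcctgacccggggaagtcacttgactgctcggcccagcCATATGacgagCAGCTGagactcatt
Stx2 downstream start, chr5:128990237-128990486, minus strand: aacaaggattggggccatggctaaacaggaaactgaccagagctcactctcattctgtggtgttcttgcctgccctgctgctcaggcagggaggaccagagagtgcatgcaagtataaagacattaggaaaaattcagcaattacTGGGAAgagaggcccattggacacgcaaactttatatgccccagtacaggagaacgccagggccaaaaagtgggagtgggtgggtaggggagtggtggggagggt
The Rab27a window held CATATG 26 and CAGCTG 15 bases before the start. Of all 32851 windows of this length, 3.46% held CATATG, 13.0% CAGCTG and 0.326% both. The Rab3d window held none of the 3 motifs. The Stx2 window held TGGGAA 105 bases before the start, a motif found in 21.6% of windows. The upstream starts of Rab27a and Stx2 held none of them. These are letter matches, and binding was not measured.

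Rab3d encodes the Rab3 family member found on zymogen granules and was the member with the highest mean count (2170 per library; probe Rab3d_62473). It stood at 82, 102 and 129 CPM (lowest, median and highest) in newborn-type libraries and at 138, 187 and 231 CPM in adult-type libraries. The class medians differed by 0.86 (log2), higher than 92.0% of the 16143 probes. As a share of the library total the order turned: Rab3d stood at 127, 156 and 192 CPM in the newborn type and at 75.8, 81.3 and 102 CPM in the adult type, again without overlap. Among newborn-type libraries the highest value was in the library labelled TCDD dam 10, and among adult-type libraries the lowest was in that labelled TCDD female pup 6.

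Rab27a, a close relative of Rab27b best known on secretory lysosomes of pigment cells and lymphocytes, had the largest upward class difference of the members. By probe Rab27a_31493 it stood at 9.73, 10.6 and 12.6 CPM in newborn-type libraries and at 20.8, 26.2 and 35.3 CPM in adult-type libraries, a log2 difference of 1.26. A separate probe, Rab27a_79676, gave 1.15 and ranges that likewise did not overlap. By Rab27a_31493 the highest newborn-type value was 1.29 times the lowest, against 1.70 in the adult type. By Rab27a_79676 these ratios were 2.00 and 1.61, so the probes differed on which class varied more. On the library total Rab27a stood at 11.6 to 22.4 CPM in the newborn type and at 8.81 to 20.9 CPM in the adult type, and the ranges overlapped.

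Rab27b encodes the Rab27 form described on zymogen granules, and its class difference was smaller than that of Rab27a. It stood at 10.6, 13.9 and 15.7 CPM in newborn-type and at 15.2, 19.1 and 24.8 CPM in adult-type libraries, a log2 difference of 0.44. Only the library labelled TCDD female pup 6, at 15.2 CPM, reached into the newborn-type range; the other 7 adult-type libraries stood at 17.1 to 24.8 CPM. Without that library 3 members, Rab27b among them, had an adult-type range wholly above. No share of all probes is given beside that count. TCDD female pup 6 also had the lowest Rab3d and Snap23 of its class. By probe Rab27a_31493 it had the highest Rab27a (35.3 CPM, against 20.8 to 29.2 CPM in the other 7). Probe Rab27a_79676 did not show this, with 15.1 CPM in that library and an adult-type range of 13.2 to 21.3 CPM.

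Vamp8 and Vamp2 encode the granule SNAREs, of which VAMP8 is known to be needed for the bulk of regulated enzyme release. Vamp8 stood at 5.56, 8.30 and 11.6 CPM in newborn-type and at 9.21, 14.1 and 17.1 CPM in adult-type libraries, a log2 difference of 0.73 with overlapping ranges. The adult-type libraries labelled control dam 7 (9.21 CPM) and TCDD male pup 8 (10.2 CPM) reached into the newborn-type range. The top of that range was the library labelled TCDD female pup 8 (11.6 CPM), followed by control female pup 7 (9.36 CPM). Vamp2 stood at 2.2, 3.00 and 3.84 CPM in newborn-type and at 1.57, 3.58 and 4.48 CPM in adult-type libraries by its most abundant probe. Its 3 probes gave log2 differences of 0.22, -0.04 and 0.80, so they did not share a direction.

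Stx2 was the 1 member with its adult-type range wholly below the newborn-type range under each of the 4 scalings tried. It stood at 14.2, 16.2 and 19.1 CPM in newborn-type libraries and at 2.83, 5.26 and 7.05 CPM in adult-type libraries. The log2 difference was -1.54, and -3.29 on the library total, where values were 20.7 to 33 and 1.19 to 3.55 CPM. Of the 16143 probes, 9.04% lay further down. The adult-type counts ranged from 20 upward in a library, so they lay well above the floor of 3 counts.

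Stx3, Snap23 and Stxbp2 made up the rest of the fusion machinery and overlapped between classes. Stx3 stood at 3.71, 4.51 and 6.92 CPM in newborn-type and at 1.93, 3.51 and 5.97 CPM in adult-type libraries, while its less abundant probe lay in the opposite direction (log2 differences -0.32 and 0.24). Snap23, the plasma membrane partner SNARE, stood at 17.5, 20.7 and 23.2 CPM and at 18.8, 23.1 and 28.4 CPM, a log2 difference of 0.16 and the smallest highest-to-lowest ratio of the members in the adult type (1.51). Stxbp2, which encodes the SM protein Munc18-2, stood at 0.919, 1.71 and 2.77 CPM and at 0.786, 1.64 and 4.48 CPM. Its 2 more abundant probes gave log2 differences of -0.04 and 0.35, at mean counts of 35.1 and 11.8, so its counts are the lowest of the members.

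On the library total, 0 members had an adult-type range wholly above (0.421% of probes) and 6 of the 9 had it wholly below (69.7% of probes). These were Rab3d, Rab27b, Vamp2, Stx2, Stx3 and Snap23. The direction of Rab3d, Rab27a, Rab27b, Vamp2, Vamp8 and Snap23 thus flips between TMM and the library total. A change of scaling shifts all probes nearly alike, so the order of the members is nearly fixed whatever the scaling.

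**Figure D2:**
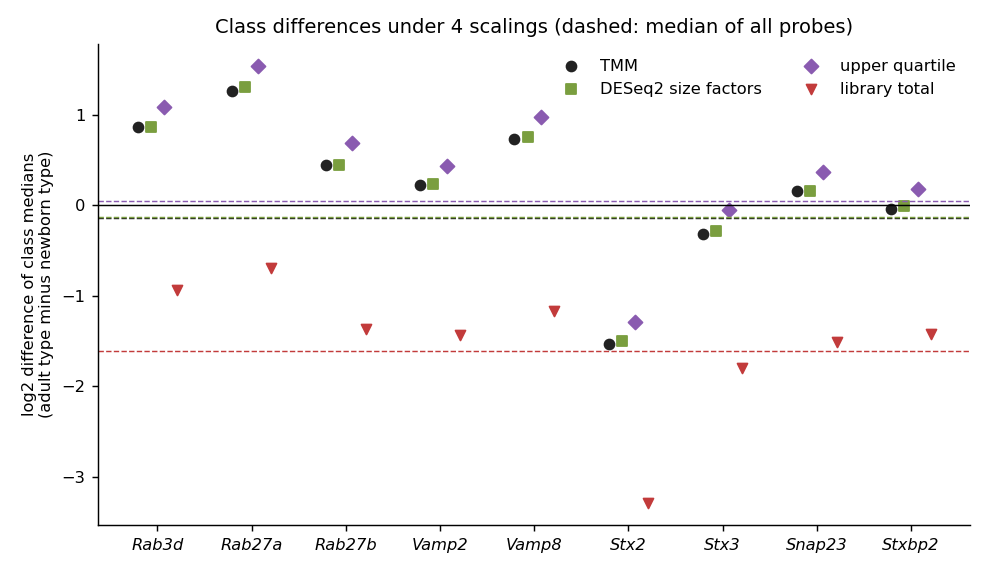
Log2 difference of class medians (adult type minus newborn type) for each member under 4 scalings, with dashed lines at the median of 16143 probes. Every member lies below 0 on the library total, and Stx2 lies lowest under each scaling.

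Ratios of members within a library do not depend on the scaling. Of the 36 pairs of members, 11 had ratios that did not overlap between the classes, beside 19.5% of all pairs of the 16143 probes. Stx2 was part of 7 of these 11, with its share lower in the adult type each time. Counts of Rab27a per count of Stx2 were 0.511, 0.673 and 0.853 in newborn-type and 3.66, 4.39 and 9.15 in adult-type libraries. Rab3d per Stx2 count was 4.76 to 8.49 and 22 to 62.3, and Rab3d per Snap23 count 3.59 to 6.52 and 6.74 to 10.5. Probes differ in efficiency, so such a ratio compares libraries and not the abundance of the 2 transcripts.

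The ratio of Rab27a to Rab27b was 0.678 to 1.1 in the newborn type and 0.842 to 2.32 in the adult type, and the ranges overlapped. Rab27a against the SNARE genes Vamp2, Stx2, Stx3 and Snap23 did not overlap. Against Vamp8, the remaining SNARE gene of the members, it did (0.892 to 2.16 and 1.37 to 3.16). Against the enzyme gene Cpa1, a pairing chosen after its values were seen, Rab3d stood lower in the adult type. There were 5.13 to 9.76 Rab3d counts per 1000 Cpa1 counts in the newborn type and 2.00 to 2.60 in the adult type, without overlap.

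**Figure D3:**
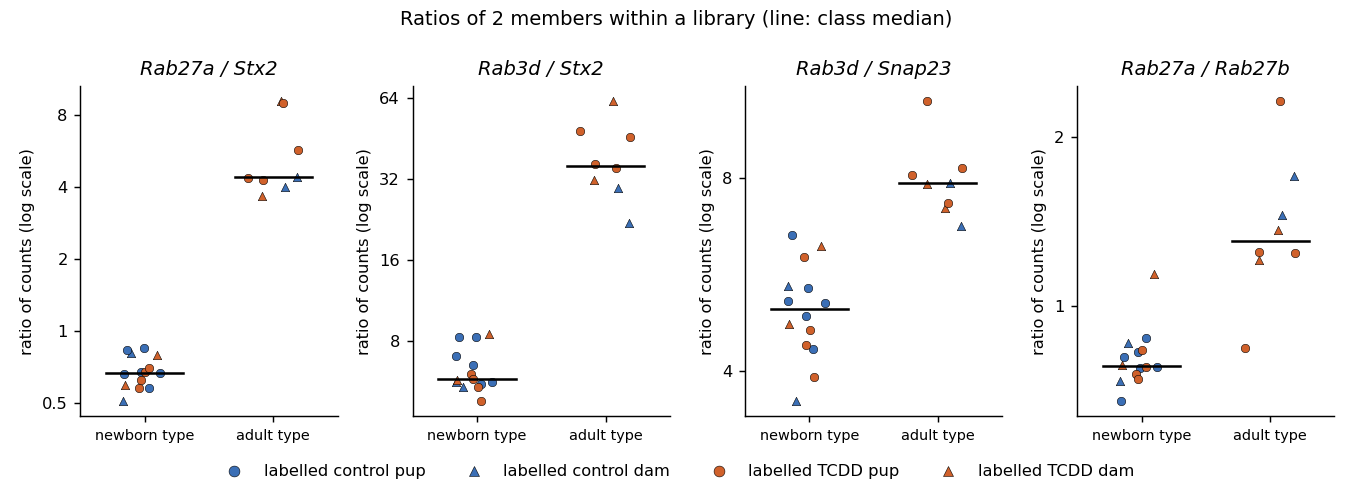
Ratio of the counts of 2 members in each library (log axes), by class, with 0.5 added to each count and a line at the class median. Rab27a/Stx2, Rab3d/Stx2 and Rab3d/Snap23 do not overlap between the classes, while Rab27a/Rab27b does.

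Beyond the members, 107 further genes of Rab, tether, SNARE, SM protein and synaptotagmin lists were examined, 84 averaging at least 10 counts. Of these 84, 13 (15.5%, beside 7.75% of all probes) had an adult-type range wholly above and 5 (6.0%, beside 13.2%) wholly below. On the library total the numbers were 0 (beside 0.421%) and 63 (75%, beside 69.7%). The list counts that follow are of the genes averaging at least 10 counts. Under TMM each is to be read beside the same 7.75% above and 13.2% below of all probes. Of 12 other secretory Rabs, 2 stood above, Rab26, a granule Rab of acinar cells (9.76 to 15.6 and 27.0 to 39.8 CPM), and Rab3a, the form typical of neurons (2.04 to 4.21 and 4.98 to 9.86 CPM). Rab8b, which acts in transport to the plasma membrane, stood below (11.9 to 18.6 and 1.83 to 10.7 CPM), and Rab37 had a log2 difference of -1.83 with overlap.

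Among 27 Rab effectors and tethers, 2 stood above (beside 7.75% of all probes) and 1 below (beside 13.2%). Sytl1, which encodes the Rab27 effector Slp1, stood at 3.34 to 7.16 CPM in the newborn type and at 11.5 to 26 CPM in the adult type. Myo5a, the myosin Va motor that carries Rab27 granules in pigment cells, stood at 3.20 to 8.10 and 0.459 to 2.37 CPM. Mlph, which links Rab27a to that motor, and Rims2, a Rab3 effector of neuroendocrine release sites, overlapped at log2 differences of 1.68 and -1.64.

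Of 22 other SNAREs, 6 stood above (27.3%, beside 7.75% of all probes) and 0 below (beside 13.2%), and on the library total 0 stood above and 18 below. Bet1, a SNARE of endoplasmic reticulum to Golgi traffic, had a log2 difference of 1.53 and Vti1b, an endosomal SNARE, of 1.29. Stx1a, the neuroendocrine plasma membrane syntaxin, and Stx19 overlapped at -1.41 and -1.45. Among 18 SM proteins and SNARE regulators, 2 stood above (beside 7.75% of all probes) and 3 below (beside 13.2%). Unc13b, a granule priming factor, stood above at 13.9 to 22.3 and 33.2 to 50.5 CPM. Cadps and Cplx2, priming and clamping factors of neuroendocrine granules, stood at 2.43 to 4.74 and 0 to 0.724 CPM and at 2.51 to 5.54 and 0 to 2.23 CPM. Stxbp5l, which encodes the SNARE-binding protein tomosyn-2, overlapped at -2.06.

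Of 5 synaptotagmins, a family of vesicle membrane proteins, Syt3 alone stood above (beside 7.75% of all probes), at 0.555 to 2.12 and 3.88 to 7.82 CPM. Syt9, Syt11 and Syt13 had log2 differences of -0.77, -0.88 and -0.92 and overlapped. Of the 8 adult-type libraries, 4 or more lay at or under 3 counts for Rims2, Stx19, Stxbp5l, Cplx2, Syt11 and Syt13, so the differences given for these genes depend on the prior of 0.5 CPM. Of 9 zymogen granule proteins 7 stood above (beside 7.75% of all probes), and 4 on the library total (beside 0.421%). Zg16 had a log2 difference of 3.83, Rnase1 of 2.94, Cuzd1 of 2.82 and Sycn of 2.52. These 4 differences were larger than that of any of the 9 members. Of the 7 acinar transcription factors 3 stood above (beside 7.75% of all probes). Bhlha15, known to drive Rab3d and Rab26 in acinar cells, stood at 2.82 to 10.6 and 16.1 to 31.9 CPM. Ptf1a stood above at 1.27 (log2) and Xbp1 at 0.55, while Rbpjl overlapped at 1.19. On the library total 0 of the 7 stood above (beside 0.421%) and 2 below (beside 69.7%). There Bhlha15, Ptf1a and Xbp1 had log2 differences of 0.07, -0.55 and -1.27.

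**Figure D4:**
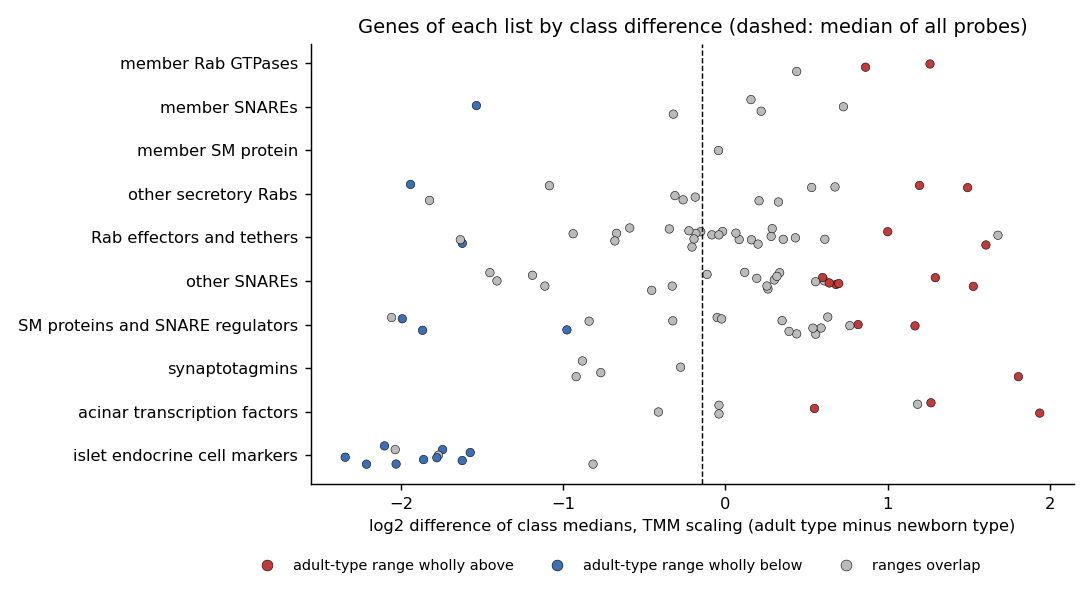
Each point is a gene, placed by its log2 difference of class medians under TMM scaling (adult type minus newborn type), in rows by gene list. Red and blue mark genes whose adult-type range lies wholly above or below the newborn-type range, grey marks overlap, and the dashed line is the median of all probes.

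Markers of other cells differed between the classes as well, and their part in the member differences was not tested. Summed islet endocrine markers stood at 873 to 1708 CPM in newborn-type and 260 to 744 CPM in adult-type libraries. Of the 12 genes 9 stood wholly below, beside 13.2% of all probes. Mesenchyme markers (7 of 8 wholly below) summed to 996 to 1486 and 94.1 to 206 CPM. Duct markers (3 of 8) summed to 301 to 413 and 64.2 to 134 CPM, and platelet and mast cell markers (4 of 5) to 31.6 to 46.6 and 2.88 to 9.52 CPM.

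Leukocyte markers (0 of 7 apart) summed to 29.5 to 50.8 and 8.58 to 121 CPM, highest in the adult-type library labelled control dam 7. There Rab27a stood at 29.2 CPM, and in the adult-type library labelled control dam 5, with the lowest leukocyte sum, at 28.3 CPM. Its less abundant probe stood at 15.1 CPM in control dam 7 and at 21.3 CPM in control dam 5. In the 6 adult-type libraries labelled TCDD, Rab27a stood at 20.8 to 35.3 CPM by its most abundant probe. A relation of Rab27a to leukocyte content was not tested. Endothelial markers (1 of 6 wholly below, beside 13.2% of all probes) summed to 26.9 to 46.5 and 9.75 to 22.5 CPM. Nerve and Schwann cell markers (2 of 6) summed to 19.2 to 89.5 and 2.2 to 9.52 CPM. Adipocyte markers (0 of 2) summed to 14.1 to 22.2 and 14.8 to 154 CPM. Each marker gene that was measured had counts in at least 1 of the 22 libraries.

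The genes whose level followed each member most closely over the 14 newborn-type libraries were read from 7449 probes averaging 100 or more counts. For Rab3d these were Syngr2, a vesicle membrane protein (Pearson r = 0.92), Zg16, a granule matrix lectin (0.90), and Lman1, a cargo receptor of the secretory pathway (0.89). In the 8 adult-type libraries the r with Rab3d was 0.19, 0.90 and 0.89. For Rab27a the closest was Prom1, an apical membrane glycoprotein (0.83, and 0.81 in the adult type). For Stx2 the closest was Actr2, an actin nucleation subunit (0.79, and 0.29 in the adult type), and for Stx3 it was Rbm6 (0.92 and 0.26). The libraries share their preparation and scaling, and each r is the highest of many, so they are given as descriptions.

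By the stage labels alone, pups against dams, 0 of the 9 members passed (edgeR quasi-likelihood test, Benjamini-Hochberg adjusted p below 0.05). Of 18539 probes 0% were called, with 516 at an unadjusted p under 0.05 and 17 called by DESeq2, all lower in pups. Log2 fold changes were -0.24 ± 0.195 (SE) for Rab3d, -0.40 ± 0.272 for Rab27a and 0.17 ± 0.327 for Stx2, each with an adjusted p of 0.995. Of the 93 further exocytosis genes tested, 0 passed.

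The study asked what low-dose dioxin does to the pancreas, and the TCDD label was compared with the control label within each class. In newborn-type libraries 0 of the 9 members passed and 0% of 17109 probes were called (554 at an unadjusted p under 0.05; DESeq2 called 0). Rab3d stood at 83.3, 104 and 118 CPM in the 8 libraries labelled control and at 82, 100.1 and 129 CPM in the 6 labelled TCDD. Rab27a stood at 9.73 to 12.6 and 10.1 to 12.1 CPM and Stx2 at 14.2 to 19.1 and 15.1 to 18 CPM. The labels overlapped for each of these. Log2 fold changes of the 9 members lay between -0.09 ± 0.101 (Rab27b) and 0.11 ± 0.154 (Vamp2), each with an edgeR adjusted p of 1.

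In adult-type libraries 0 members passed and 0% of 13513 probes were called (388 at an unadjusted p under 0.05; DESeq2 called 0). By label the 2 controls of this class are dams, and its TCDD libraries are 2 dams, 1 female pup and 3 male pups. Stage and sex labels thus differ along with the chemical label and were not terms of the fit. The same imbalance enters the difference between the classes given below. Stx2 stood at 6.58 and 7.05 CPM in the 2 libraries labelled control and at 2.83 to 6.04 CPM in the 6 labelled TCDD. The Stx2 fold change of -0.57 ± 0.320 (log2, SE) had an adjusted p of 1 with edgeR. Stxbp2 had -0.79 ± 0.585 and Vamp2 -0.43 ± 0.404, and the other members lay between -0.15 and 0.17. These are values of the most abundant probes. The less abundant Vamp2 probes gave -0.91 and 1.13, so Vamp2 probes did not share a direction. The difference between the classes in the TCDD effect was also tested: for Stx2 it was -0.61 ± 0.245 (unadjusted p = 0.0195, adjusted p = 0.527 with edgeR), and 0 members passed (0% of 19209 probes called, 1523 at an unadjusted p under 0.05; DESeq2 called 23).

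In male pups the TCDD label moved with the class, with 3 of 4 TCDD and 0 of 3 control libraries of adult type. In female pups it was 1 of 4 and 0 of 3, and in dams 2 of 4 under either label. In male pups Rab27a stood at 12.2, 10.1 and 11.8 CPM in the controls labelled 2, 4 and 7. It stood at 26, 12.0, 20.8 and 23.5 CPM in the TCDD pups labelled 11, 6, 8 and 10. The TCDD male pup at 12.0 CPM is the newborn-type library of that group, and the other 3 are adult type. The log2 fold change was 0.93 ± 0.286 for Rab27a (adjusted p = 0.273 with edgeR), 0.79 ± 0.359 for Rab3d, 0.77 ± 0.283 for Vamp8, 0.57 ± 0.230 for Rab27b and -0.78 ± 0.449 for Stx2. Here 0% of 16176 probes were called by edgeR (2703 at an unadjusted p under 0.05), and DESeq2 called 505.

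Without TCDD male pup 6, which leaves newborn-type controls against adult-type TCDD pups, edgeR called 6451 probes. That fit sets count-defined classes against each other, so treatment and class cannot be told apart in it and its calls are no test of treatment. The log2 fold changes were then 1.04 for Rab3d, 1.13 for Rab27a and -1.46 for Stx2. In female pups the log2 fold change was 0.61 ± 0.486 for Rab27a and -0.35 ± 0.412 for Stx2 (edgeR adjusted p = 0.996 for both; 0% of 17513 probes called, 299 at an unadjusted p under 0.05, DESeq2 0). In dams it was 0.15 ± 0.345 for Rab3d and -0.20 ± 0.544 for Stx2 (edgeR adjusted p of 1 for both; 0% of 15594 probes called, 150 at an unadjusted p under 0.05, DESeq2 0).

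**Figure D5:**
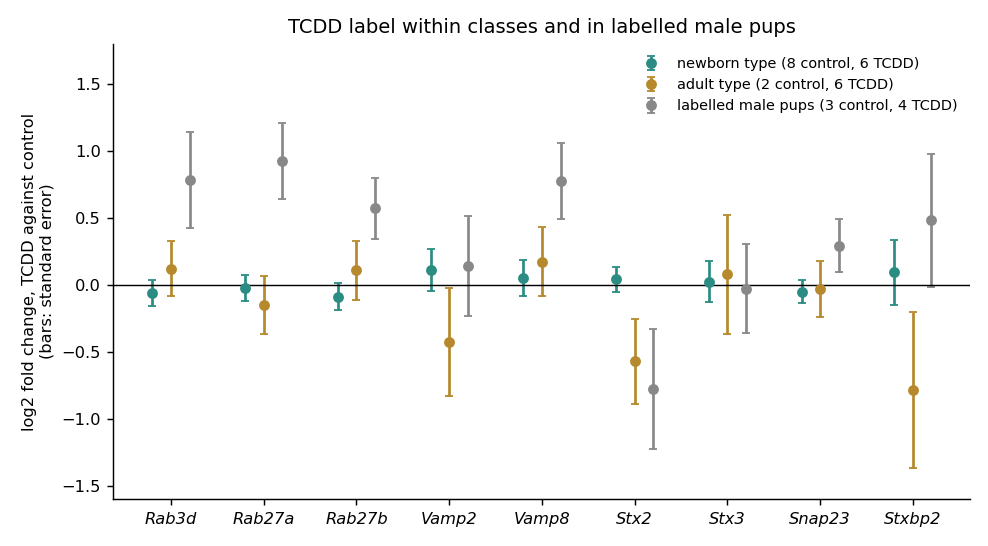
Log2 fold change of each member between libraries labelled TCDD and control, with standard errors as bars, within the newborn type, within the adult type and in labelled male pups. The newborn-type values lie within 0.11 of 0, and none of the 27 values passed the test.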

How the data were processed

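The authors deposited 1 table of raw read counts per TempO-Seq probe for 22 libraries, with no normalization per the file header. The submitters' processing notes name bcl2fastq 2.17.1.14. Which aligner and which build were used is not given in the sources used here. Groups follow the dam or pup, sex and chemical labels. The members, lists and classes were chosen with earlier results of these data known. Levels are counts over TMM-scaled library size (factors 1.19 to 1.83 in the newborn type, 0.363 to 0.593 in the adult type), log2 differences of class medians use a prior of 0.5 CPM, and a gene is read by its probe with the highest mean count. Within a list, up to 4 genes with the largest absolute class difference were named, and for each member the 3 most similar probes were found.

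Tests used R 4.3.3 and edgeR 4.0.16 (filterByExpr, TMM, glmQLFit, glmQLFTest, adjusted over all probes), with DESeq2 1.42.0 and limma 3.58.1 in alternatives, after checks on simulated counts. In the titles a pup carries the number of its dam, so numbers mark litters and pair libraries; over 9 same-numbered newborn-type pairs the correlation of deviations was -0.32 to 0.24. Counts carry no molecular identifiers, so reads are not independent molecules. Standard errors were taken from the fold change and its F statistic. Near-identical family members could share probe signal.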

Additional observations from a re-analysis of the deposited data

Results flagged for a closer look

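Over 45 sets of 4 to 8 libraries (9 members in the adult type and in 4 labelled groups), 3 held a library far from the rest by Dixon's 95% limit. Chance passes that limit in about 1 in 20 sets of like libraries, and this rate does not hold for labelled groups that mix the 2 classes. Rab27a stood at 35.3 CPM in the library labelled TCDD female pup 6, against at most 10.5 CPM in the other TCDD female pups. Stx2 stood at 3.88 CPM in the same library, against 15.3 CPM or more in the others of its group. Stx2 stood at 17.2 CPM in the library labelled TCDD male pup 6, against at most 6.04 CPM in the other TCDD male pups. By Afp and Pnlip, TCDD female pup 6 is the adult-type library of its group and TCDD male pup 6 the newborn-type library of its group.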

How the results depend on the processing

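On the library total instead of TMM, the members with an adult-type range wholly above went from 2 to 0 and those wholly below from 1 to 6, and Rab3d and Rab27a turned to log2 differences of -0.93 and -0.69. DESeq2 size factors, upper-quartile factors, sums over probes, a prior of 2 CPM and the 14 libraries with matching stage label gave 2 or 3 above and 1 below. Leaving out each adult-type library gave 2 to 3 above and 1 below. Except for the library total, no share of all probes is given beside these alternative counts.

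Pups against dams had 0 calls, with 17 by DESeq2, 1 without a low-count filter and 0 to 1 with each library left out (1 without TCDD dam 10 or 6). With the litter number as a replicate block, the fixed term gave 0 calls and Rab3d a log2 fold change of -0.06, and the random effect in newborn-type libraries gave 0 calls; the block changed no other call. Male pups had 505 calls by DESeq2 and 0 to 6451 with 1 library left out, the latter without TCDD male pup 6, where the fit sets the 2 classes against each other. Within the adult type 112 probes passed without the filter and 0 to 2 with 1 library left out (2 without control dam 5). A fit without 1 of its 2 controls assumes that the remaining one varies like the TCDD group. The difference between classes had 23 calls by DESeq2, 9 without the filter and 0 to 46 with 1 library left out, the most without control dam 5 (46) and TCDD dam 8 (19). Leaving out libraries gave 0 to 0 calls in dams, female pups and newborn-type libraries. The cause of these changes was not tested. Of 1017 single-member values in the label tests, 936 kept their direction and their side of the threshold. Another 76 changed sign while not passing, 5 passed the threshold and 0 reversed. The 5 were Rab3d, Rab27a, Rab27b, Vamp8 and Stx2 in male pups without TCDD male pup 6. That fit sets the 2 classes against each other and is no test of treatment. Stx2 had as few as 20 counts and Stxbp2 as few as 6 in a library, which limits their precision.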
